A study of Mus musculus with 24 samples.

Results

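The 10 genes described here mark neurons that are still being born, migrating or extending axons: Dcx, Sox4, Sox11, Cd24a, Igfbpl1, Marcksl1, Tmsb10, Tubb2b, Tubb3 and Gap43. They were taken by symbol from the 46078 gene rows of the deposited table, and all 10 had the mean normalised count of at least 10 that 18267 genes passed to be tested. The libraries come from brain tissue of naïve C57BL/6N mice, either wild type (WT) or carrying a Shank2 knock-out (KO), aged 14 days (P14) or 25 days (P25). Each of the 4 combinations (P14 WT, P14 KO, P25 WT, P25 KO) holds 6 libraries, and the design text gives 6 mice per group. All groups share the strain, the tissue label and the absence of drug treatment, and the labels do not say which part of Shank2 is deleted. In every group 3 libraries carry a second-batch mark in their descriptions, and the 3 without it are called the first batch here. The question asked of the 10 genes is how far their RNA differs between P14 and P25 in each genotype and batch, and how that stands beside the brain regions the libraries hold.

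Newborn neurons pass through a short stage between leaving the cell cycle and forming synapses. The SoxC transcription factors Sox4 and Sox11 switch on cytoskeletal and adhesion genes of that stage, doublecortin (Dcx) stabilises the microtubules of migrating neurons, and beta tubulins such as Tubb2b and Tubb3 build the growing axon. In the postnatal mouse brain such cells persist mainly in the stream that carries new interneurons to the olfactory bulb, in the dentate gyrus and, until about the third postnatal week, in the external granule layer of the cerebellum, while cortical axons are still growing and branching at the younger age.

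On GRCm38 the 10 protein-coding genes lie at chrX:143855842-143933311 (Dcx), chr13:28948919-28953713 (Sox4), chr12:27334264-27342574 (Sox11), chr10:43578284-43584265 (Cd24a), chr4:45809468-45826923 (Igfbpl1), chr4:129513581-129515985 (Marcksl1), chr6:72957347-72958748 (Tmsb10), chr13:34126748-34130466 (Tubb2b), chr8:123411424-123422015 (Tubb3) and chr16:42248442-42340651 (Gap43). Promoter sequence from RefSeq (GRCm38.p6) could be matched for 6 of the 10 genes. The 4 printed are Dcx, Sox11, Tmsb10 and Tubb3, which include each window with a SOX core match as defined next. The windows of Sox4 and Marcksl1, without such a match, are not printed. Sox4 and Sox11 are known regulators of genes of this stage, and Tubb3 is a textbook SoxC target. Each run is the part of the 250 bases before the start site that no transcript of the gene covers, written 5′ to 3′ on the gene's strand, with capitals for any match to the SOX core letters ACAAAG or ACAATG on either strand. They lie at chrX:143933312-143933469 (Dcx, minus strand), chr12:27342719-27342968 (Sox11, minus strand), chr6:72958749-72958998 (Tmsb10, minus strand) and chr8:123411303-123411423 (Tubb3, plus strand).
Dcx: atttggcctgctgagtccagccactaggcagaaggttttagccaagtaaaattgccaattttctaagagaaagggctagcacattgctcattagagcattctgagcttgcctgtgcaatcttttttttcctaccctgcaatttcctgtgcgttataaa
Sox11: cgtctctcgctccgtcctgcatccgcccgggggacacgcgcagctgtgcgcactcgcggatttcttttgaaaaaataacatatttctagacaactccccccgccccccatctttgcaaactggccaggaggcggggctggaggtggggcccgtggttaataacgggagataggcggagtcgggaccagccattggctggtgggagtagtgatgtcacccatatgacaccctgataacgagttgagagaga
Tmsb10: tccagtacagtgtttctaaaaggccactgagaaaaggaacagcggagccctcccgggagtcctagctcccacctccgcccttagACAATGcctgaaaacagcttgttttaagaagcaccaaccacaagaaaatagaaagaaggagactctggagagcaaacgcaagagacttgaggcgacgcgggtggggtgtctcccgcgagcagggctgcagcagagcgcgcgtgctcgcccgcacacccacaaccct
Tubb3: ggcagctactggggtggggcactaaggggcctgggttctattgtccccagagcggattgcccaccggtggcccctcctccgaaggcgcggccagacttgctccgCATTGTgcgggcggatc
Tubb3 holds 1 SOX core match in its 121 bases, on the opposite strand (CATTGT as printed), and 13.6% of all 32851 promoter windows cut to that length hold one. Tmsb10 holds 1 match in 250 bases, where 25.2% of windows do. None was found in the windows of Dcx (158 bases), Sox4 (236 bases), Sox11 or Marcksl1 (250 bases each). The GC box letters GGGCGG occur in 2 places in Sox11 and in 1 place each in Tmsb10 and Tubb3 over both strands, against 32.7% of all windows of 250 bases and 12.9% of windows of 121 bases with at least 1. The E-box letters CANNTG occur in 2 places in Sox11 and in 1 place each in Sox4 and Marcksl1, a match that 66.2% of windows of 250 bases and 64.3% of windows of 236 bases hold. No match of one motif overlapped a match of another. These matches describe letters in the windows and say nothing of binding.

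Recovered read totals ran from 27552844 to 40787586 per library. Shank2 itself, the targeted gene, had values of 1899 to 6458 in P14 KO (median 3919) and 3932 to 12778 in P14 WT (median 7815), with 3 KO libraries above the lowest WT library. At P25 the ranges were 2217 to 5153 in KO and 6382 to 13358 in WT, with no overlap. Its log2 difference of KO against WT was -0.93 at P14 and -1.33 at P25, with limma unadjusted p = 0.00179 and 5e-05. That difference did not pass over all genes at either age (limma adjusted p = 1.00 and 0.446). The series is described as whole brain, but regional markers set the libraries apart, and the forebrain gene Emx2 is near 0 in some. Emx2, a transcription factor of the dorsal forebrain, ranged from 0 to 1192, Cbln3, a secreted protein of cerebellar granule neurons, from 18.3 to 61110, and Omp, a protein of mature olfactory sensory neurons, from 6.3 to 40401. By these 3 genes the libraries were sorted into 11 called forebrain (Emx2 of at least 100, Cbln3 under 1000, Omp under 100), 4 called olfactory (the same but Omp of at least 100), 5 called cerebellum-rich (Cbln3 of at least 30000) and 4 called mixed (the rest). The cerebellum-rich libraries, in which Emx2 ran from 0 to 3.89, were P25 WT replicates 4, 5 and 6 and P25 KO replicates 5 and 6, all of the second batch. The olfactory libraries, also all of the second batch, were replicates 4 and 6 of P14 KO, replicate 5 of P14 WT and replicate 4 of P25 KO. The mixed libraries, all of the first batch, were P14 KO replicate 1, P14 WT replicate 3, P25 KO replicate 2 and P25 WT replicate 3. In them Cbln3 ran from 2373 to 25147 and Emx2 from 31.4 to 200, so the first batch is not of 1 region either. The forebrain libraries numbered 7 at P14 and 4 at P25, and the latter were all of the first batch. In the second batch age and region cannot be told apart, since 5 of its P25 libraries are cerebellum-rich and none of its P14 libraries is.

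**Figure D1:**
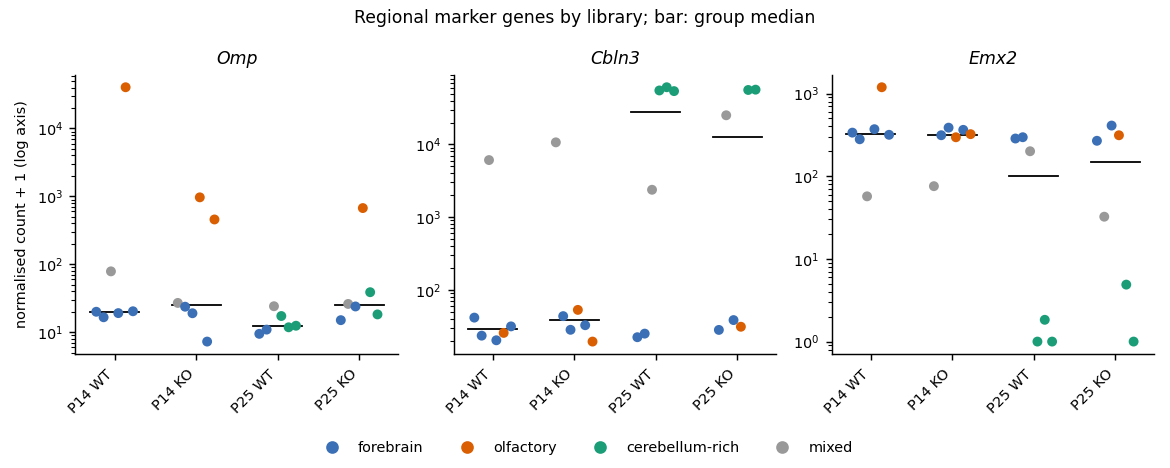
Normalised counts plus 1 (log axis) of the regional markers Omp, Cbln3 and Emx2 in each of the 24 libraries by group, with points coloured by the regional sorting and bars at the group medians. Cbln3 lies between 54064 and 61110 in the 5 cerebellum-rich P25 libraries, while Emx2 lies at 3.89 or less in them.

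All 10 genes were lower at P25 than at P14 in WT mice, and 9 of the 10 were lower in KO mice, Igfbpl1 being the one that did not pass. Averaged over WT libraries, P25 values were 12.4% (Igfbpl1) to 48.7% (Gap43) of the P14 values, and over KO libraries 18.6% (Igfbpl1) to 48.9% (Tubb3). The median log2 difference of the 10 genes was -1.70 in WT and -1.63 in KO, where the median over all 18267 genes was -0.03 and -0.01. These calls come from limma on log2(value + 1) with a batch term within each age, at a Benjamini-Hochberg adjusted p under 0.05 over all genes. By that rule 14.4% of all genes were called lower at P25 in WT and 5.95% in KO. Taking both genotypes together, all 10 were called lower, beside 23.9% of all genes. In bulk tissue, fewer cells of a type and less RNA per cell cannot be told apart.

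Dcx, the microtubule protein that labels migrating neuroblasts, had values from 2791 to 10329 (median 3211) in P14 WT and from 320 to 2267 (median 787) in P25 WT. In KO mice the values ran from 2835 to 21816 (median 4357) at P14 and from 412 to 9020 (median 1209) at P25. Every WT library at P25 lay below every WT library at P14, while in KO 1 P25 library, replicate 4, reached above 4 of the 6 P14 libraries. The log2 difference was -2.31 (SE 0.64, limma adjusted p = 0.0138) in WT and -2.40 (SE 0.64, adjusted p = 0.0229) in KO. The high libraries at both ages were the olfactory ones.

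Sox4 and Sox11 encode the SoxC transcription factors. Sox4 ran from 645 to 1288 (median 689) in P14 WT and from 181 to 655 (median 313) in P25 WT. KO libraries ranged from 621 to 2488 (median 804) at P14 and from 181 to 1386 (median 377) at P25. The groups overlapped in both genotypes, in WT through P25 replicate 1 and in KO through P25 replicate 4. Sox11 ran from 681 to 4018 (median 1059) in P14 WT and from 143 to 781 (median 407) in P25 WT. In KO its range was 688 to 2619 (median 1354) at P14 and 164 to 1459 (median 488) at P25, and in both genotypes the ages overlapped, with 3 of 6 KO libraries at P25 below all at P14. Sox4 differed by -1.26 (SE 0.42, limma adjusted p = 0.0327) in WT and -1.43 (SE 0.42, adjusted p = 0.0342) in KO, and Sox11 by -1.95 (SE 0.52, adjusted p = 0.0106) and -1.71 (SE 0.52, adjusted p = 0.0375). A lncRNA gene, Gm26735, lies opposite Sox4 on the other strand, and their reads cannot be told apart if counting did not use strand.

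Cd24a encodes a heavily glycosylated surface protein of immature neurons. Its values ran from 1247 to 2519 (median 1807) in P14 WT and from 58.9 to 699 (median 333) in P25 WT. In KO they ran from 1422 to 3220 (median 2733) at P14 and from 99.4 to 1413 (median 566) at P25. No P25 library of either genotype reached the lowest P14 library of its genotype. The log2 difference was -2.77 (SE 0.45, limma adjusted p = 0.000492) in WT and -2.41 (SE 0.45, adjusted p = 0.00307) in KO.

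Igfbpl1, a secreted protein related to the insulin-like growth factor binding proteins and found in neuroblasts, varied most between libraries among the 10. It ran from 81.2 to 792 (median 363) in P14 WT and from 1.67 to 162 (median 34.6) in P25 WT. In KO it ran from 4.2 to 1730 (median 645) at P14 and from 3.89 to 680 (median 52.0) at P25. The groups overlapped in both genotypes, and P14 KO replicate 5, a forebrain library, lay at 4.2 while the next lowest P14 KO library lay at 251. The log2 difference was -3.73 (SE 1.32, limma adjusted p = 0.0418) in WT and -3.06 (SE 1.32, adjusted p = 0.122) in KO. The KO value passed when P14 KO replicate 5 (-4.32, adjusted p = 0.0235) or P25 KO replicate 4 (-4.19, adjusted p = 0.00921) was left out.

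Marcksl1, a membrane protein that binds actin and calmodulin, ran from 9237 to 15370 (median 13914) in P14 WT and from 1080 to 5196 (median 2706) in P25 WT. Its KO values ran from 9301 to 18472 (median 13984) at P14 and from 1226 to 6692 (median 3706) at P25. The ages did not overlap in either genotype. Tmsb10, a small protein that sequesters actin monomers, ran from 4591 to 5243 (median 4753) in P14 WT and from 978 to 3533 (median 2044) in P25 WT. In KO it ran from 4282 to 6805 (median 4625) at P14 and from 929 to 3843 (median 2643) at P25, again without overlap. Marcksl1 differed by -2.45 (SE 0.33, limma adjusted p = 0.00012) in WT and -2.13 (SE 0.33, adjusted p = 0.000759) in KO on the log2 scale, and Tmsb10 by -1.40 (SE 0.20, adjusted p = 0.000188) and -1.21 (SE 0.20, adjusted p = 0.00118). Of the 50-base stretches of the longest Tmsb10 transcript, 43.5% also occur in another gene, chiefly Gm9844, so that its count is uncertain.

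Tubb2b and Tubb3 encode beta tubulins of young neurons. Tubb2b ran from 6391 to 14654 (median 11805) in P14 WT and from 2342 to 5668 (median 4031) in P25 WT. KO values of this gene ran from 9176 to 17337 (median 12564) at P14 and from 3045 to 6663 (median 4254) at P25. The ages did not overlap in either genotype, although 39.3% of its 50-base stretches are shared, mostly with Tubb2a. Tubb3 ran from 19862 to 26169 (median 23748) in P14 WT and from 5560 to 15287 (median 10722) in P25 WT. In KO it ran from 17536 to 30189 (median 26729) at P14 and from 7047 to 19578 (median 12303) at P25, where replicate 4 alone lay above the lowest P14 library. Gm20388 overlaps Tubb3 on the same strand, so that reads there are uncertain. The log2 differences were -1.46 (SE 0.23, limma adjusted p = 0.000486) in WT and -1.56 (SE 0.23, adjusted p = 0.000658) in KO for Tubb2b, and -1.25 (SE 0.20, adjusted p = 0.000487) and -1.10 (SE 0.20, adjusted p = 0.00297) for Tubb3.

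Gap43, a membrane protein of axonal growth cones, had the smallest differences. It ran from 8919 to 17405 (median 11889) in P14 WT and from 3746 to 9903 (median 5821) in P25 WT. In KO it ran from 10503 to 21099 (median 13418) at P14 and from 4818 to 10463 (median 6324) at P25. The ages overlapped in WT through P25 replicate 2 and did not overlap in KO. The log2 difference was -1.08 (SE 0.21) in both genotypes, with limma adjusted p = 0.0018 in WT and 0.00432 in KO. Counted over the 10 genes, every P25 library lay below every P14 library for 6 genes in WT and 5 in KO, where 2.51% and 1.51% of all genes did so.

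**Figure D2:**
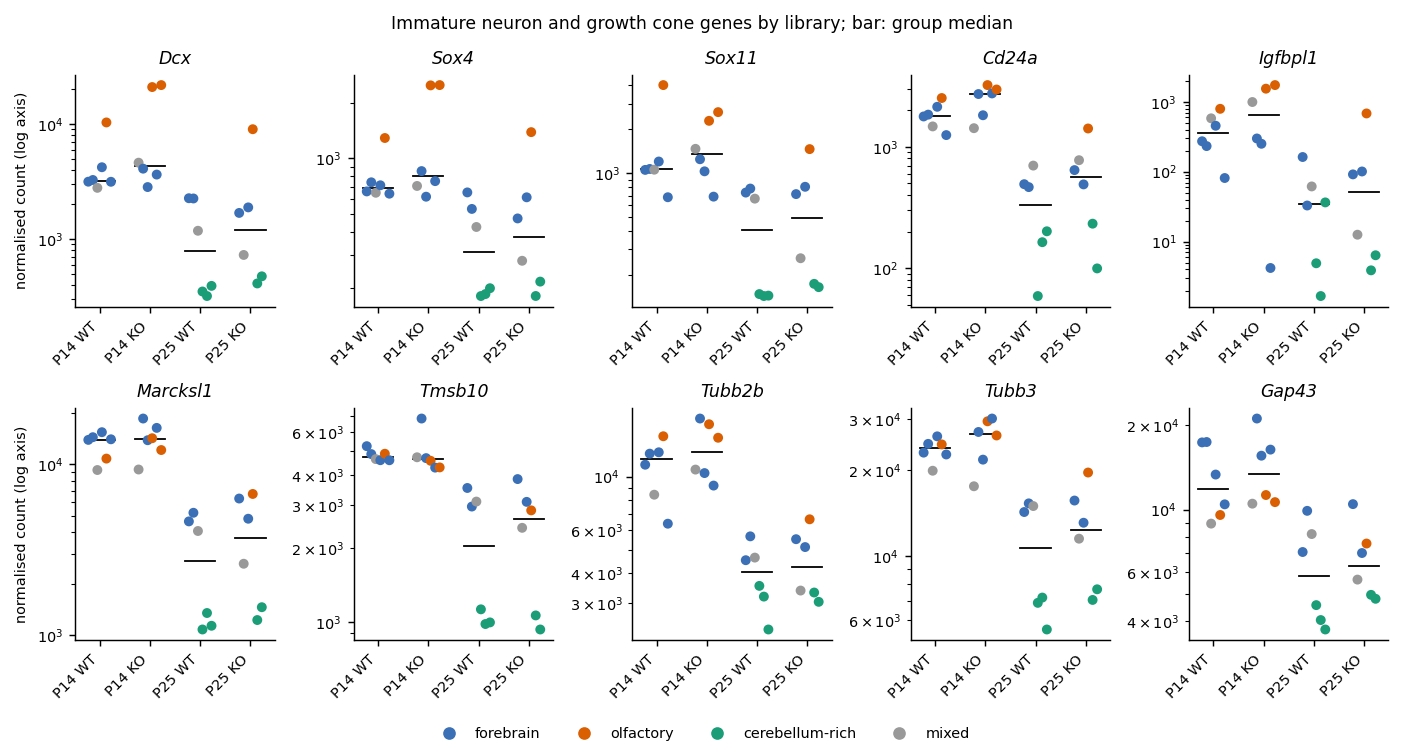
Normalised counts (log axis) of the 10 genes in each of the 24 libraries by group, with points coloured by regional sorting and bars at the group medians. The olfactory libraries hold the highest Dcx, Sox4 and Sox11 values of their groups, and for 9 genes every cerebellum-rich library lies below every P25 forebrain library. The cerebellum-rich libraries are all of the second batch and the P25 forebrain ones all of the first.

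The count of calls in KO also turned on the model. Without a batch term 5 of the 10 were called in KO, beside 1.43% of all genes, and 4 when only the KO libraries were fitted, beside 1.02%. edgeR called 8 in WT and 6 in KO, beside 5111 and 2177 of 18267 genes in either direction. DESeq2, where a gene without an adjusted p counts as not called, also called 8 and 6, beside 6157 and 3374. In KO neither called Dcx, Sox4, Sox11 or Igfbpl1. DESeq2 did not call Dcx or Sox4 in WT or over both genotypes either. Neither had an unadjusted p under 0.05 there, which a missing p would also give, so this need not be a negative test result. limma-voom called 8 in WT and 9 in KO, beside 4877 and 2314 genes. In the 15 libraries with Emx2 of at least 100 and Cbln3 under 1000, 1 was called in WT (0.126%), 4 in KO (0.575%) and 6 over both (2.35%).

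Calls near the threshold turned on single libraries. In WT, Sox4 was no longer called (limma adjusted p from 0.051 to 0.0735) without any one of P14 WT replicates 1, 2 and 5 or P25 WT replicates 3, 4, 5 and 6. Igfbpl1 in WT was no longer called (adjusted p from 0.0582 to 0.103) without any one of P14 WT replicates 1 to 5 or P25 WT replicates 2 to 5. In KO the call of Dcx was lost (adjusted p from 0.0512 to 0.0693) without any one of P14 KO replicates 2 and 4 or P25 KO replicates 2, 5 and 6. Sox4 in KO lost it (adjusted p from 0.0555 to 0.101) without any one of P14 KO replicates 2, 4 and 6 or P25 KO replicates 1, 2, 3, 5 and 6, and Sox11 in KO (adjusted p from 0.0578 to 0.113) without any one of those or P14 KO replicate 3. Cd24a, Marcksl1, Tmsb10, Tubb2b, Tubb3 and Gap43 were called in both genotypes whichever single library was left out.

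Among the 11 forebrain libraries alone, 8 of the 10 genes were lower at P25 over both genotypes, beside 11.8% of all genes, and Cd24a and Marcksl1 fell most. Cd24a differed by -1.95 (SE 0.19, limma adjusted p = 0.00059), Marcksl1 by -1.53 (SE 0.11, adjusted p = 0.000182), Tubb2b by -1.28 (SE 0.21, adjusted p = 0.00399) and Gap43 by -1.07 (SE 0.17, adjusted p = 0.00316). Tubb3 (-0.72, SE 0.10, adjusted p = 0.00178), Dcx (-0.72, SE 0.12, adjusted p = 0.00393), Tmsb10 (-0.68, SE 0.12, adjusted p = 0.00558) and Sox11 (-0.53, SE 0.17, adjusted p = 0.0481) also passed. Sox4 (-0.34, SE 0.13, adjusted p = 0.0812) and Igfbpl1 (-1.63, SE 0.96, adjusted p = 0.25) did not. A list of 5 oligodendrocyte markers summed to 44337 to 215717 in the P14 forebrain libraries and 238334 to 475084 in the P25 ones, without overlap. A list of 6 cortex markers summed to 11489 to 18064 against 6781 to 14082, and one of 6 striatal projection neuron markers to 3513 to 16126 against 3410 to 44889. Of these lists 0 genes were at 0 throughout either set, and their part in the differences was not tested. This subset was chosen after the data had been seen, and whether its differences differ from those of all 24 libraries was not tested. Its fit held a batch term shared by both ages, and its P25 libraries were all of the first batch. Set beside the fit of all 24, it therefore changes batch as well as region.

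Library by library, Cd24a lay between 1247 and 2748 in the 7 P14 forebrain libraries and between 465 and 642 in the 4 at P25, where the mean was 25.6% of the P14 mean. Marcksl1 lay between 13796 and 18472 at P14 and between 4626 and 6293 at P25 (34.5%). Dcx lay between 2835 and 4215 at P14 and between 1690 and 2267 at P25 (58.2%). Those 3 genes, with Tmsb10, Tubb2b and Tubb3, did not overlap between the ages, a pattern that 8.36% of all genes showed. Sox11 overlapped, at 681 to 1242 against 716 to 804, and its P25 mean was 76.4% of the P14 mean. Sox4 overlapped through 1 library, at 621 to 854 against 474 to 655 (79.8%), and Gap43 likewise through 1, at 10445 to 21099 against 7010 to 10463 (54.0%). These ranges take no account of batch: P14 KO replicate 5 and P14 WT replicates 4 and 6 were of the second batch, the P25 libraries of the first. The Sox11 overlap came from P14 KO replicate 5 (688) and P14 WT replicate 6 (681). The first-batch P14 forebrain libraries ran from 1026 to 1242 for Sox11. The Gap43 overlap came from P14 WT replicate 6 (10445). Within WT alone 6 genes were called in this subset, beside 4.32% of all genes, and within KO 7, beside 7.9%, Dcx being called in KO (-0.91, SE 0.16, limma adjusted p = 0.00898) and not in WT (-0.52, SE 0.16, adjusted p = 0.0734), a contrast whose own test gave -0.39 (SE 0.22, adjusted p = 0.559, with 0.0712% of all genes called by that test).

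With Omp, Cbln3 and Emx2 added to the model of all 24 libraries as covariates, 7 genes stayed lower at P25 over both genotypes, beside 7.94% of all genes. Marcksl1 differed by -1.42 (SE 0.14, limma adjusted p = 1e-05), Cd24a by -1.41 (SE 0.30, adjusted p = 0.00456) and Tubb2b by -1.08 (SE 0.15, adjusted p = 0.000222). Tmsb10 (-0.77), Gap43 (-0.70), Sox11 (-0.65) and Tubb3 (-0.65) passed as well. Dcx (-0.99, SE 0.36, adjusted p = 0.0698), Sox4 (-0.51, SE 0.25, adjusted p = 0.176) and Igfbpl1 (-1.73, SE 1.03, adjusted p = 0.278) did not. With covariates 5 genes were called in WT (3.85% of all genes) and 8 in KO (5.3%).

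**Figure D3:**
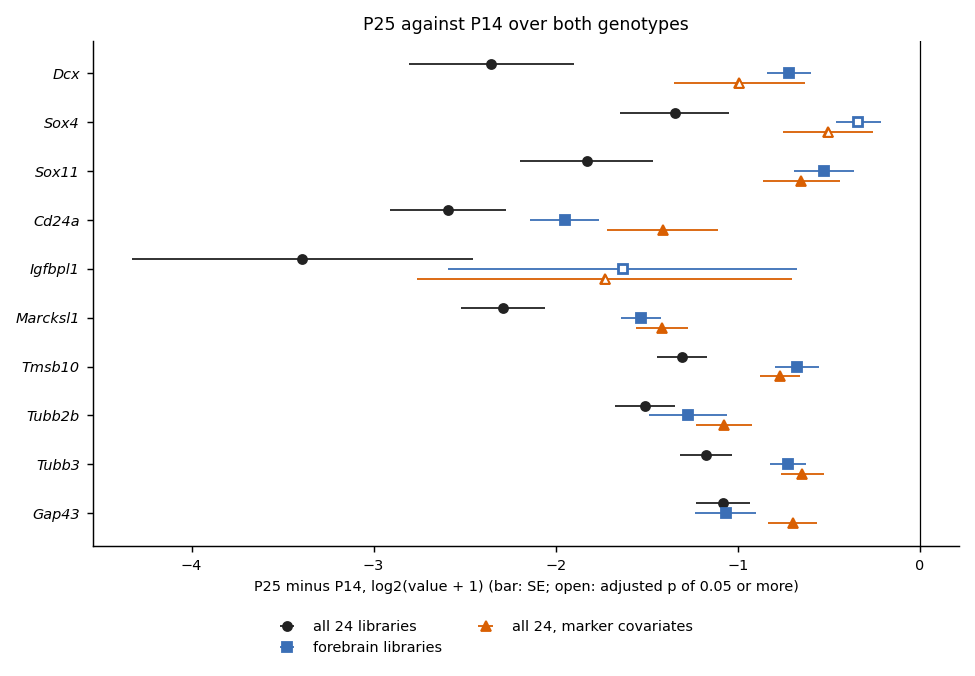
P25 minus P14 log2 differences of the 10 genes over both genotypes, with SE bars, from all 24 libraries (black), the 11 forebrain libraries (blue) and all 24 with regional marker covariates (orange), where open symbols mark an adjusted p of 0.05 or more. Dcx moves from -2.35 to -0.72 between the first and the second of these, while Gap43 stays at -1.08 and -1.07. The P25 forebrain libraries are all of the first batch, so the blue values change batch as well as region.

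Compared batch by batch, each of the 10 log2 differences over both genotypes lay nearer to 0 in the first batch than in the second. Over both genotypes the median log2 difference of the 10 genes was -1.01 in the first batch and -2.46 in the second, where the median of all genes was 0.00 and -0.03. In the first batch alone 7 genes were called lower over both genotypes, beside 4.31% of all genes: Igfbpl1 (-2.66, SE 0.62, limma adjusted p = 0.0309), Cd24a (-1.63, SE 0.18, adjusted p = 0.00287), Marcksl1 (-1.52, SE 0.24, adjusted p = 0.00799), Tubb2b (-1.27), Dcx (-1.13), Tmsb10 (-0.71) and Tubb3 (-0.65). Each first-batch group holds 1 mixed library. Igfbpl1 was at 579 and 991 in those of P14, against 232 to 298 in the first-batch P14 forebrain libraries. At P25 it was at 12.6 and 61.5 in the mixed ones, against 32.8 to 162 in forebrain, and the part of region was not tested. In the second batch alone 9 were called, beside 23.8%, and Igfbpl1 was not (-4.13, SE 1.73, adjusted p = 0.0742). Within the 3 libraries per group and batch, all 10 genes lay lower in every P25 library than in every P14 library in KO of the first batch (8.6% of all genes) and in WT of the second (27.5%). The same held for 8 genes in WT of the first batch (12.1%) and 6 in KO of the second (10.9%). With 3 libraries a side, Cd24a alone was called by limma in each genotype of the first batch (0.175% of all genes in WT, 0.137% in KO), and 9 genes in WT of the second (17.9%). In KO of the second batch 0 of the 10 was called, beside 0.0% of all genes. There 9 of the 10 had an unadjusted p under 0.05, beside 4768 of 18267 genes.

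The difference between the batches in the P25 to P14 change was itself tested. It was called for 4 genes: Tmsb10 (-1.20, SE 0.28, limma adjusted p = 0.0199), Tubb3 (-1.05, SE 0.28, adjusted p = 0.0235), Marcksl1 (-1.53, SE 0.46, adjusted p = 0.0307) and Cd24a (-1.93, SE 0.63, adjusted p = 0.0397), all more negative in the second batch, where 10.1% of all genes were called in that direction. Dcx (-2.45, SE 0.91, adjusted p = 0.0607), Sox11 (-1.90, SE 0.73, adjusted p = 0.0672) and Sox4 (-1.59, SE 0.60, adjusted p = 0.0623) did not pass. Tubb2b (-0.48) and Gap43 (-0.40) had the smallest values, with 95% intervals of -1.17 to 0.21 and -1.02 to 0.22. With the 3 regional markers as covariates 0 of the 10 passed in either direction (limma, 0 at an unadjusted p under 0.05), the values running from -0.11 for Tmsb10 to 1.22 for Igfbpl1. Of all 18267 genes 4 passed in either direction, and 0.00547% as lower in the second batch. edgeR called 2, Tubb3 and Tmsb10, beside 5.51% of all genes. Without the 4 olfactory libraries, an alternative chosen after the data had been seen, 7 passed, beside 26.2% of all genes. The calls of Cd24a and Marcksl1 were lost without any one of P14 KO replicate 1, P14 WT replicate 3, P25 KO replicates 1, 5 and 6 or P25 WT replicates 1, 2, 4 and 5 (adjusted p from 0.0519 to 0.0751). Cd24a also lost it without any one of P14 KO replicates 3, 4, 5 and 6, P14 WT replicate 4 or P25 WT replicate 3, and Marcksl1 without P25 WT replicate 6. Dcx, Sox4 and Sox11 passed without P14 KO replicate 5, P25 KO replicate 2 or P25 KO replicate 4 (adjusted p from 0.000301 to 0.0492).

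**Figure D4:**
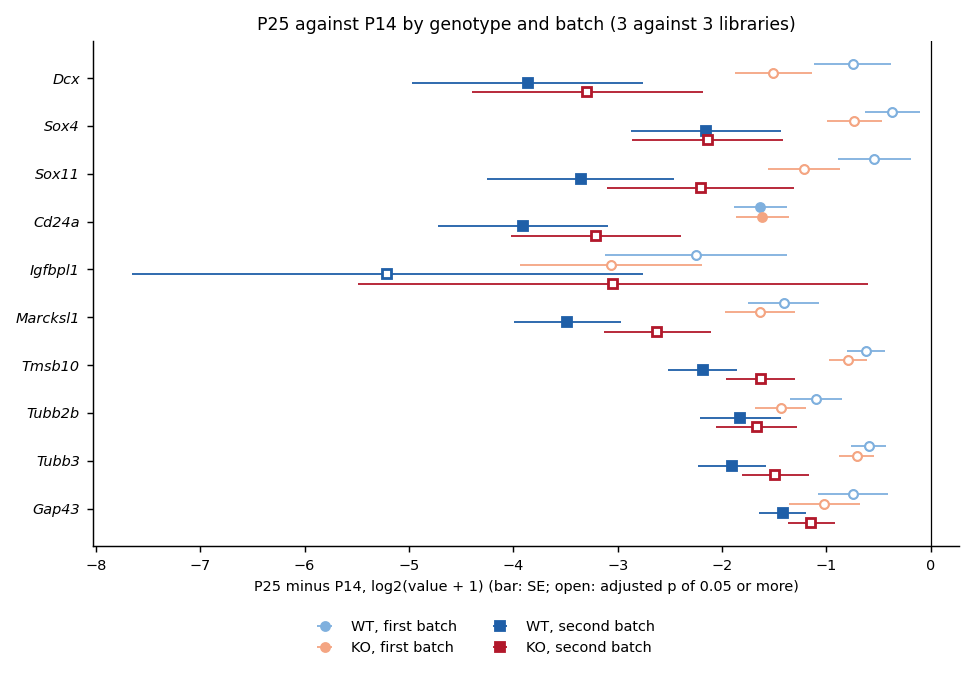
P25 minus P14 log2 differences of the 10 genes with SE bars for each genotype and batch, 3 libraries against 3, where open symbols mark an adjusted p of 0.05 or more. All values lie below 0, and the second batch (squares) lies further from 0 than the first in WT for each gene.

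The libraries sorted by region also differed in the 10 genes, which is given as values without a test. In the 3 olfactory P14 libraries Dcx ran from 10329 to 21816 and averaged 17706, against 3480 in the 7 P14 forebrain libraries. Dcx, Sox4 (1288 to 2488), Sox11 (2282 to 4018) and Igfbpl1 (792 to 1730) were higher in each of the 3 than in any P14 forebrain library, a pattern that 14.4% of all genes showed. These 4 genes averaged 292% (Sox4) to 595% (Igfbpl1) of their forebrain means. Gap43, by contrast, averaged 65.9% of its forebrain mean in those libraries and Marcksl1 81.4%, while Tubb3 (107%) and Tmsb10 (91.4%) lay near it. A list of 6 olfactory bulb neuron markers summed to 19114 to 35277 in the olfactory P14 libraries and 504 to 1016 in the P14 forebrain ones, and a list of 7 dividing progenitor markers to 12104 to 16027 against 5310 to 6951. A list of 6 olfactory sensory neuron markers reached 75084 in P14 WT replicate 5 and at most 2995 in the other libraries. No gene of these lists was at 0 throughout either set, and their part in the Dcx values was not tested.

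At P25 the 5 lowest Dcx values were those of the cerebellum-rich libraries. Dcx ran from 320 to 475 in these 5 libraries and from 1690 to 2267 in the 4 P25 forebrain libraries. The former are all of the second batch and the latter all of the first, so region and batch cannot be told apart here. Apart from Igfbpl1, which overlapped through 1 library (1.67 to 36.4 against 32.8 to 162), every one of the 10 genes was lower in each cerebellum-rich library than in any P25 forebrain library, as 29.6% of all genes were. The cerebellum-rich means ran from 11.0% (Igfbpl1) and 19.3% (Dcx) of the P25 forebrain mean to 51.5% (Gap43) and 59.4% (Tubb2b). Dividing progenitor markers summed to 791 to 1390 in the cerebellum-rich libraries and 4044 to 5745 in the P25 forebrain ones. Leaving the 5 cerebellum-rich libraries out, an alternative chosen after the data had been seen, left 3 genes called in WT (0.526% of all genes), 5 in KO (0.569%) and 6 over both (3.93%). The 6 were Cd24a, Marcksl1, Tubb2b, Tubb3, Tmsb10 and Gap43.

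None of the 10 genes passed the test of KO against WT at either age. By limma 0 of 10 passed at P14 and 0 at P25, 0 had an unadjusted p under 0.05 at either age, and 0.0% of all genes passed at each. edgeR, DESeq2 and limma-voom also called none of the 10, the first 2 of these with 0 and 0 at an unadjusted p under 0.05 at P14 and 1 and 2 at P25, and limma-voom with 0 at both ages. Over all genes edgeR and limma-voom called 0.0% at both ages, and DESeq2 0.00547% at P14 and 0.0219% at P25. The largest P14 difference was that of Dcx, 0.75 on the log2 scale with a 95% interval from -0.59 to 2.09, and at P25 that of Cd24a, 0.78 with an interval from -0.15 to 1.71. The narrowest intervals were those of Tmsb10, from -0.40 to 0.42 at P14 and from -0.21 to 0.61 at P25, so that a change of KO against WT beyond a ratio of 0.758 or 1.34 at P14 lay outside it. For Dcx the P14 interval allowed ratios from 0.664 to 4.26. The change from P14 to P25 did not pass as different between KO and WT for any gene either (limma, 0 of 10, 0 unadjusted, 0.0% of all genes), with differences from -0.17 (Sox4, interval -1.42 to 1.07) to 0.67 (Igfbpl1, interval -3.23 to 4.57). Olfactory libraries numbered 2 in P14 KO, 1 in P14 WT and 1 in P25 KO, with none in P25 WT. For KO against WT in the forebrain libraries, Dcx differed by 0.05 (SE 0.13) at P14 and -0.34 (SE 0.17) at P25. There 0 of the 10 passed by limma, beside 0 of 18267 genes at P14 and 59 at P25. Of the 10, 1 had an unadjusted p under 0.05 at P14 and 0 at P25, beside 1079 and 1664 genes. With marker covariates 0 of the 10 passed, beside 2 genes at P14 and 1 at P25. Then 3 of the 10 had an unadjusted p under 0.05 at P14 and 0 at P25, beside 2166 and 605 genes. In that model 0 of the 10 lay below 0 at P14, and 6 at P25.

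Other genes of the same stage were taken from lists of related genes. The lists were chosen with earlier results of these data known, and the genes named from each had its lowest p over both genotypes. Their falls are therefore a description and no separate support. Of 15 microtubule genes of growing neurons, 11 fell and 0 rose over both genotypes, and in the forebrain libraries 10 fell and 0 rose. Over all genes 23.9% fell and 22.4% rose in the 24 libraries, and 11.8% fell and 11.0% rose in the forebrain ones. The CRMP gene Dpysl5, whose product binds microtubules in growing neurites, fell by 2.02 (SE 0.18, limma adjusted p = 4.52e-07) in all libraries and differed by -1.96 (SE 0.18, adjusted p = 0.00059) in forebrain. Dpysl3, of the same family, was at -2.33 in all libraries and -1.64 in forebrain, and the alpha tubulin Tuba1a at -1.26 and -0.96, and all of these passed. The list's median was -0.69 in all libraries and -0.53 in forebrain.

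Of 14 actin and membrane genes of growth cones, 11 fell and 0 rose, and 9 fell and 0 rose in forebrain. Marcks, the larger relative of Marcksl1, passed at -0.75 (SE 0.07, limma adjusted p = 1.14e-06) in all libraries and at -0.49 in forebrain. Tmsb4x, the relative of Tmsb10, passed at -0.82 and -0.36. Basp1, another membrane protein of growth cones, passed at -2.67 (SE 0.48) in all libraries and at -0.69 (SE 0.08) in forebrain. In this list the all-library median was -0.61 and the forebrain median -0.35.

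Of 11 partner and neurogenic transcription factors 3 fell and 1 rose, and in forebrain 2 fell and 0 rose. Sox12, the remaining SoxC gene, passed at -0.56 (SE 0.09, limma adjusted p = 9.97e-05) in all libraries and at -0.38 (SE 0.12, adjusted p = 0.0487) in forebrain. Insm1 and Nhlh1, which mark newly formed neurons, passed at -1.97 and -2.07 in all libraries and were at 0.05 (adjusted p = 0.854) and -0.38 (adjusted p = 0.289) in forebrain, where neither passed. Of 10 progenitor and proliferation genes 8 fell and 0 rose in all libraries, and 4 fell and 0 rose in forebrain, with medians of -1.37 and -0.19. The proliferation genes Top2a (-1.83, then -1.22) and Mki67 (-1.82, then -1.12) passed in both, and the cyclin Ccnd2 in all libraries only (-1.41, then -0.22 with limma adjusted p = 0.235).

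Of 12 migration, guidance and polysialic acid genes 9 fell and 1 rose in all libraries, and 3 fell and 2 rose in forebrain. The polysialyltransferase St8sia2 passed at -1.98 (SE 0.30) in all libraries and -1.06 (SE 0.20) in forebrain, and Ncam1, the carrier of polysialic acid, at -0.47 (SE 0.06) and -0.55 (SE 0.08). Robo1, a receptor for Slit guidance cues, fell by 0.73 in all libraries and was at -0.21 (limma adjusted p = 0.196) in forebrain. Of 10 genes of the mature cytoskeleton and synapse, 1 rose and 1 fell in each set. Snap25, a SNARE protein of synaptic vesicle release, passed at 0.74 (SE 0.13, limma adjusted p = 0.000336) in all libraries and 0.54 (SE 0.09, adjusted p = 0.00445) in forebrain. The neurofilament gene Nefl fell by 0.63 in all libraries and was at -0.21 (adjusted p = 0.103) in forebrain, and Tubb4a, a tubulin of mature cells, was at 0.30 (adjusted p = 0.0842) and -0.03.

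**Figure D5:**
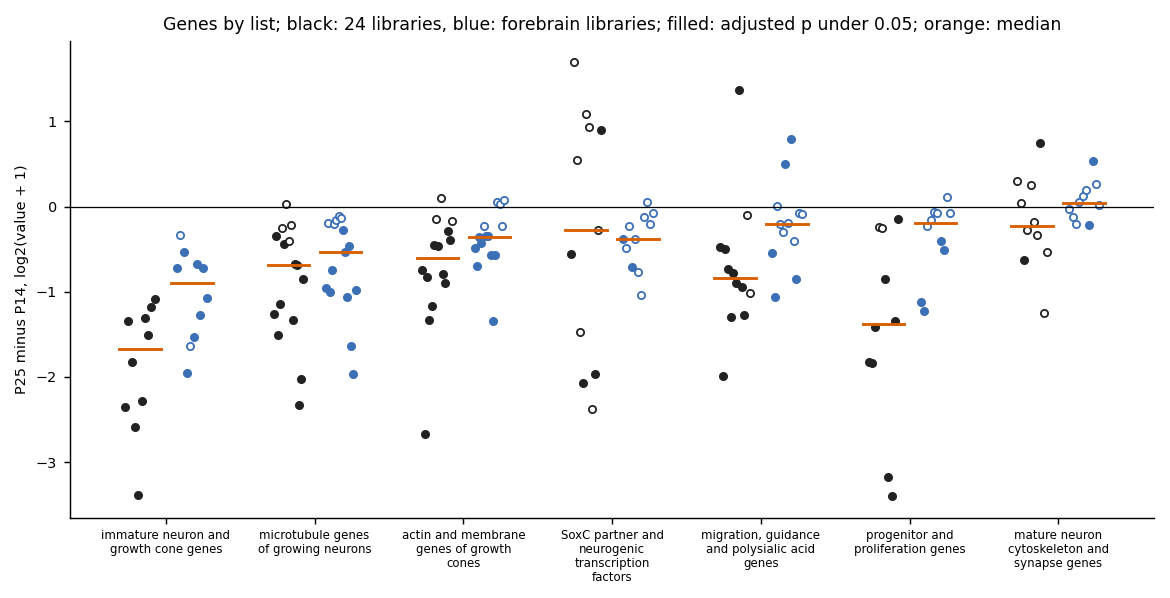
P25 minus P14 log2 differences over both genotypes for each gene of 7 lists, from all 24 libraries (black) and the 11 forebrain libraries (blue), filled where the adjusted p was under 0.05, with orange bars at list medians. The 10 genes described here have medians of -1.67 and -0.90, and the mature neuron list has -0.22 and 0.04.

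Levels per kilobase of annotated exon put the 10 genes on a common scale. In P14 WT they ran in the order Tubb3 (12562 ± 1167 per kilobase), Gap43 (8429 ± 2512), Marcksl1 (8056 ± 1481), Tubb2b (4770 ± 1320), Tmsb10 (3763 ± 198), Cd24a (710 ± 177), Dcx (355 ± 230), Sox11 (182 ± 149), Sox4 (164 ± 52.1) and Igfbpl1 (124 ± 79.6), each as mean ± SD of 6 libraries. Of neighbours in this order, Gap43 and Marcksl1, Tubb2b and Tmsb10, and each pair from Cd24a to Igfbpl1 overlapped within 1 SD, while Tubb3 and Gap43, Marcksl1 and Tubb2b, and Tmsb10 and Cd24a did not. At P25 in WT the same measure gave 5722 ± 2456 for Tubb3, 4107 ± 1653 for Gap43, 1812 ± 1197 for Marcksl1, 1737 ± 518 for Tubb2b and 1659 ± 944 for Tmsb10. At that age the levels of Gap43, Marcksl1, Tubb2b and Tmsb10 per kilobase overlapped within 1 SD from each gene to the next. The other 5 genes were at 134 ± 94.4 (Cd24a), 89.2 ± 73.9 (Dcx), 75.8 ± 42.8 (Sox4), 52.4 ± 38.6 (Sox11) and 15.4 ± 18.2 (Igfbpl1).

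For each of the 10 genes the pair of tested genes with the most similar profile was found by the root mean square difference of centred log2 values over the 24 libraries. Tubb3 was followed most closely, by Tubb5 (0.155) and Tuba1a (0.175), where its own SD over libraries was 0.734. Tuba1a was also nearest to Tubb2b (0.313). Gap43 was nearest to Hsbp1 (0.211) and Rac3 (0.223), and Tmsb10 to Hddc2 (0.242) and Epb41l2 (0.252). Cd24a was nearest to Dpysl3 (0.453) and St8sia2 (0.513), and Marcksl1 to Crybb1 (0.36) and Dpysl3 (0.395). Sox4 was nearest to Kif26a (0.276) and Lrrc55 (0.339), and Dcx to Cdca7 (0.553) and Ptpro (0.566). For Sox11, Fndc1 (0.383) was among the pair. Igfbpl1 had no close profile, with Prokr2 at 1.59 and Dcx at 1.61 beside its own SD of 2.8. The libraries share age and region in all these profiles, so likeness over them is a description only.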

How the data were processed

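RNA of 24 brain libraries was sequenced from a TruSeq version 2 kit, per the labels' protocols. Trimmomatic 0.35, TopHat2 2.1.0, HTSeq and DESeq2 on GRCm38 are named in the submitters' processing notes. The annotation release and strand setting: not given in the sources used here. Each deposited number is a normalised signal: it gave a whole number of reads, within 0.01, for 100% of nonzero values once multiplied by a size factor of its library (0.825 to 1.223). Symbols and positions came from GENCODE M21 for 98.0% of rows.

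The main test was limma 3.58.1 (R 4.3.3) with an intensity trend on log2(value + 1), which understates changes of low genes, for genes with a mean of at least 10. The model held 4 group means and a batch term within each age, with Benjamini-Hochberg adjustment over all 18267 genes and a threshold of 0.05. It was also run on simulated counts that differed by age only. Those held no batch or regional differences, so that run says nothing of how the model deals with them. Depth was 27552844 to 40787586 reads per library; p-values measure the spread between these libraries. Alternatives were edgeR 4.0.16, DESeq2 1.42.0 and limma-voom on recovered counts, other scalings, filters, pseudocounts, batch handling and library subsets. A batch term shared by both ages was used for 3 subsets. They were the forebrain libraries, those with Emx2 of at least 100 and Cbln3 under 1000, and those without the cerebellum-rich libraries. Fits of a single batch held no batch term. The 10 genes and the lists were chosen with earlier results of these data known. The genes named were the 10, 3 regional markers, the 3 genes per list with the lowest p over both genotypes, and the 2 nearest profiles per gene, of which some are not reported here.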

Additional observations from a re-analysis of the deposited data

Results flagged for a closer look

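Among 40 groups of 6 values (10 genes in 4 groups), 8 held a highest value whose gap to the next exceeded 0.625 of the group's range. That limit flags about 1 group in 20 for independent normal values. The values here are untransformed counts of genes that share the same libraries, so the count of 8 measures no excess. In P14 WT replicate 5, an olfactory library, the flagged values were Dcx (10329, next 4215), Sox4 (1288, next 743) and Sox11 (4018, next 1199). In P25 KO replicate 4, also olfactory, they were Dcx (9020, next 1887), Sox4 (1386, next 616) and Igfbpl1 (680, next 101). The remaining 2 lay in forebrain libraries, Igfbpl1 in P25 WT replicate 1 (162, next 61.5) and Tmsb10 in P14 KO replicate 2 (6805, next 4721).

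The change from P14 to P25 was more negative in the second batch than in the first by a test of that difference for Cd24a (-1.93, limma adjusted p = 0.0397), Marcksl1 (-1.53, 0.0307), Tubb3 (-1.05, 0.0235) and Tmsb10 (-1.20, 0.0199). The cerebellum-rich and olfactory libraries are all in the second batch, and the mixed ones are all in the first.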

How the results depend on the processing

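Among values of single genes under all alternatives, the P25 to P14 difference in WT kept its side of the threshold in 357 of 420 and lost the call in 62, in KO in 347 and 71 of 420, and over both genotypes in 391 and 19 of 410. The KO to WT values were uncalled in all 430 at each age. Counts of called genes that moved by over 1.5 times were as follows, the cause of each not being tested. In WT (10 called) there was 1 in the first batch alone, 5 with marker covariates, 1 in libraries with Emx2 of at least 100 and Cbln3 under 1000, 6 in the 11 forebrain libraries and 3 without the cerebellum-rich libraries. In KO (9 called) there were 5 without a batch term, 4 fitting only the groups compared, 1 in the first batch, 0 in the second, 4 in libraries with Emx2 of at least 100 and Cbln3 under 1000, and 5 without the cerebellum-rich ones. Over both (10) there were 6 in each of the last 2 subsets. For the batch difference (4) there were 2 with edgeR, 0 with covariates and 7 without olfactory libraries. Leaving out 1 library gave 8 to 10 in WT, 6 to 10 in KO, 10 over both, 2 to 7 for the batch difference and 0 for the rest. Of values called, the sign turned for Sox4 in WT (0.12, limma adjusted p = 0.958) in the libraries with Emx2 and little Cbln3, and, with covariates, for the batch difference of Cd24a (0.42), Marcksl1 (0.31) and Tubb3 (0.040). Counting values not called, 8 of the 10 batch differences lay above 0 with covariates, and signs turned in 71 of 420 values of the KO to WT difference in the age change and in 19 and 40 of 430 of the KO to WT differences at P14 and P25. Same-numbered libraries were not taken as pairs, since their correlations ran from -0.599 to 0.857, but the P25 WT and KO libraries of replicates 1, 3, 5 and 6 were at 0.738, 0.529, 0.857 and 0.762. The sample codes of same-numbered WT and KO libraries of an age share a prefix that the labels do not explain. With the replicate number as a block across ages 8, 6 and 10 of the 10 genes were called in WT, KO and over both, while the calls over all genes went from 5134, 2163 and 8453 to 2468, 768 and 6205. With it as a block within each age, chosen after seeing the data, limma called 0 of the 10 (0 at an unadjusted p under 0.05) for KO against WT at P14, at P25 and for the difference between them. TMM scaling shifted the median of all genes by 0.009.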
